A study of Homo sapiens with 5 samples.

Results

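The genes described here encode the machinery of mitochondrial oxidative phosphorylation. They were the protein-coding genes of the RefSeq table for GRCh38.p14 (hg38) whose symbols start with NDUFA, NDUFB, NDUFC, NDUFS, NDUFV, UQCR, ATP5 or COX4 to COX8, together with SDHA, SDHB, SDHC, SDHD and CYC1. That rule gave 97 of the 19866 protein-coding genes used. Of these, 46 belonged to complex I, 4 to complex II, 10 to complex III, 17 to complex IV and 20 to complex V, as read from the symbols. The complex I count includes the 8 NDUFAF genes, which encode assembly factors and not subunits.

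FOXO3A binding was mapped by CUT&Tag, in which an antibody guides a transposase that cuts and tags nearby DNA, in THP-1 (3 libraries) and U-937 (2 libraries). Both are established human myeloid cell lines, grown in the same medium with no treatment named in the labels, and all libraries used the same FOXO3A antibody. The aim in the series' own terms was to find direct targets of FOXO3A. Peaks were present in replicate 1 of each line only, with 2272 peaks on chromosomes in U-937 and 1037 in THP-1, and the remaining 3 libraries held 0. Every peak below therefore rests on 1 library. The other libraries of its line held 0 peaks at any gene, so the absence of a peak there does not single out a gene. No test between groups was possible. Read depth is unknown, no IgG or input library was used here, and peak lists do not measure expression, so the identity of the lines was not checked.

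Oxidative phosphorylation couples the oxidation of NADH and succinate to ATP synthesis. Complexes I and II pass electrons to coenzyme Q, complex III passes them on to cytochrome c, complex IV reduces oxygen, and complex V (ATP synthase) uses the proton gradient that complexes I, III and IV build. Most subunits are encoded in the nucleus and a few on mitochondrial DNA. FOXO3A is a forkhead transcription factor that growth factor signalling through AKT keeps out of the nucleus, and forkhead factors are known for binding the core sequence GTAAACA.

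The promoters with the strongest U-937 peaks at these genes are printed first, to show how much of the 250 bases before the start site each peak covers. The ATP5MC1, COX5B and NDUFAF8 peaks cover 194, 210 and 205 of the 250 bases, while the UQCR11 peak covers 92 and lies mostly further upstream. Capitals mark bases inside the deposited U-937 peak, and lower case marks bases outside it. All are from RefSeq, build GRCh38.p14, 5′ to 3′ on the strand of the gene: ATP5MC1 at chr17:48892537-48892786 (plus), COX5B at chr2:97645812-97646061 (plus), NDUFAF8 at chr17:81239061-81239310 (plus), UQCR11 at chr19:1605463-1605712 (minus) and NDUFAF7 at chr2:37231597-37231657 (plus). The NDUFAF7 stretch is cut to the 61 bases that separate it from CEBPZ. The strongest peak of all, near NDUFA11, left the 250 bases before that gene uncovered (0 bases in the peak) and covered 224 of the 250 bases before its neighbour VMAC at chr19:5904622-5904871 (plus), so the VMAC window is shown. COXFA4 at chr7:10940154-10940403 (minus), a gene outside the rule that was added after its values were seen, is described further on.
ATP5MC1: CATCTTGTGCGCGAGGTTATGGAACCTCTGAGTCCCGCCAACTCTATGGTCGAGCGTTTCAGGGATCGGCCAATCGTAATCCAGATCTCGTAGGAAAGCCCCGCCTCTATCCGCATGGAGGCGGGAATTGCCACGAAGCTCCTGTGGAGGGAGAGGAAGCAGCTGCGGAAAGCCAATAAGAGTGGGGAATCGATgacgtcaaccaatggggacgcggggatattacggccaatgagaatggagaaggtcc
COX5B: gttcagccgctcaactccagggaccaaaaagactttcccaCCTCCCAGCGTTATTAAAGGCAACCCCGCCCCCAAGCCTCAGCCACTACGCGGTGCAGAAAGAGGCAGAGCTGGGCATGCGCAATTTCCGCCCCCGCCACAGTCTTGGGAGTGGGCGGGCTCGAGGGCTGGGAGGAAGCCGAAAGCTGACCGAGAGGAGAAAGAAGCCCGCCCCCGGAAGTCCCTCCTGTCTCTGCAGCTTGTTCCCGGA
NDUFAF8: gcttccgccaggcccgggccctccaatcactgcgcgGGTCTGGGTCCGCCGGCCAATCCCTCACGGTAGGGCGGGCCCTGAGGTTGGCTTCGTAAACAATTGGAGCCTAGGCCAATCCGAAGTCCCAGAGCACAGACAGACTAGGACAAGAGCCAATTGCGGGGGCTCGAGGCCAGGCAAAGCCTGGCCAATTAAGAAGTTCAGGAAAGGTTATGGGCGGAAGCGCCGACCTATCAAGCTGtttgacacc
UQCR11: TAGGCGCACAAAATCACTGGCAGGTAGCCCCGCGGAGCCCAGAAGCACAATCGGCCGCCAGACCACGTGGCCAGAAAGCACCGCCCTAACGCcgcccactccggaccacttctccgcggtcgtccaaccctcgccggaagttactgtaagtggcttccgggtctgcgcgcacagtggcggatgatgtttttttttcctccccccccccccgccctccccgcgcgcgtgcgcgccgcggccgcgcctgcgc
NDUFAF7: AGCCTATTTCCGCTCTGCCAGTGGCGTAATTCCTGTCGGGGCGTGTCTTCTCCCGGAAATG
VMAC: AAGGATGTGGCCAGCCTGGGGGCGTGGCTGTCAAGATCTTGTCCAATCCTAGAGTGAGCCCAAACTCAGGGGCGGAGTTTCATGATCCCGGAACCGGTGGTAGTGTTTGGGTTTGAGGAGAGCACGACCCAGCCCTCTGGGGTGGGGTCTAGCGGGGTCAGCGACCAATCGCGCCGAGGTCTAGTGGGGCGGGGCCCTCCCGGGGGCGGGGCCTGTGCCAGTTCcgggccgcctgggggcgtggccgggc
COXFA4: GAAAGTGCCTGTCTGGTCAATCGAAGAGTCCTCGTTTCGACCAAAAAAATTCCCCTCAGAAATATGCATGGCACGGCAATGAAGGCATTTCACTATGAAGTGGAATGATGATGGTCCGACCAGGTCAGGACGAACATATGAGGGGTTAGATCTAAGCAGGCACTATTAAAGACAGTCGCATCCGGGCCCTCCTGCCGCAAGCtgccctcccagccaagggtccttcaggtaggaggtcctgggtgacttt

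In U-937, 10 of the 97 genes (10.3%, exact 95% interval 5.06 to 18.1) had a peak whose summit lay within 1000 bp of the start or end of the gene, called a boundary peak here. The genes were NDUFA6, NDUFA11, NDUFAF6, NDUFAF7, NDUFAF8, UQCRC2, UQCRH, UQCR11, COX5B and ATP5MC1. Over all 19866 protein-coding genes the share was 7.02% (1395 genes), and over the 19769 genes other than these it was 7.01% (6.65 to 7.37). The share at these genes was thus 3.3 percentage points above that of other genes, and its interval included the latter. Intervals cover counting error only and treat genes as independent.

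Complex III had the highest share among the complexes and complex II the lowest. Complex III carried peaks at 3 of 10 genes (30.0%, 6.67 to 65.2), complex I at 5 of 46 (10.9%, 3.62 to 23.6), complex IV at 1 of 17 (5.88%, 0.149 to 28.7), complex V at 1 of 20 (5.0%, 0.127 to 24.9) and complex II at 0 of 4. A count of 0 among 4 genes allows a share of up to 75.0%, and no test between the complexes was made. Within complex I, 3 of the 8 NDUFAF assembly factor genes had a peak (37.5%, 8.52 to 75.5), against 2 of the 38 others (5.26%, 0.644 to 17.7). None of the 11 NDUFB, 8 NDUFS, 3 NDUFC and 3 NDUFV genes had one, and both subunit genes with a peak were among the 13 NDUFA genes (15.4%, 1.92 to 45.4). These zeros allow a share of up to 27.3% for NDUFB, 37.5% for NDUFS and 100.0% for NDUFC and NDUFV. They thus cannot be set apart from the 7.01% of other genes, and the NDUFA interval includes it. The interval of the assembly factors lay above the 7.01% of other genes, but it rests on 3 genes, each of which shared its window with another coding gene. It did not lie above the background at a -log10 q of at least 5 (1 of 8, 0.316 to 52.7, all coding genes 3.93%), with the nearest gene only (2 of 8, 3.19 to 65.1, all 5.61%) or with gene starts only (2 of 7, 3.67 to 71.0, all 7.75%). The complex III share was 10.0% (1 of 10) at a -log10 q of at least 5 and 20.0% with the nearest gene only.

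**Figure D1:**
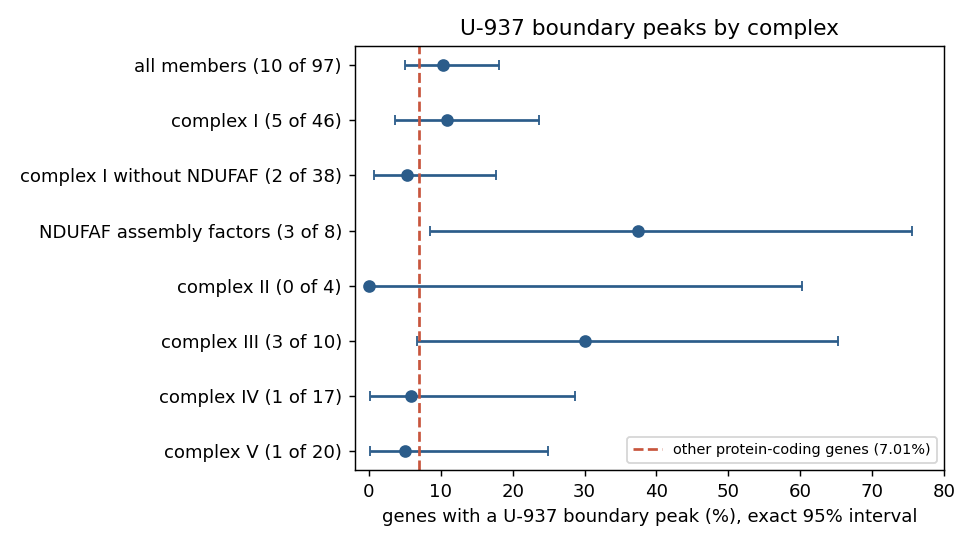
Share of genes with a U-937 boundary peak (x axis, percent) for all 97 genes and by complex (y axis, with counts). Points are shares, bars are exact 95% intervals and the dashed line is the 7.01% of other protein-coding genes; the bar of the NDUFAF assembly factors alone lies wholly to the right of that line, which does not hold at a -log10 q of at least 5, with the nearest gene only or with gene starts only.

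The peak near NDUFA11 was the strongest of the 10. NDUFA11 (gene ID 126328, chr19:5891229-5903790, minus strand) encodes an accessory subunit in the membrane arm of complex I. Its U-937 peak, chr19:5904147-5904845, was 699 bp wide and had a fold enrichment of 13.1 over the authors' background and a -log10 q of 25.8. It ranked 18 of 2272 in the list, which is the 99.3 percentile. The summit lay 780 bp upstream of the NDUFA11 start but 302 bp upstream of the start of VMAC, which encodes a coiled-coil protein and is read from the opposite strand, so VMAC was the nearest coding gene.

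NDUFA11 was also the only gene of the 97 with a boundary peak in THP-1 (1.03%, 0.0261 to 5.61), where 44 of all 19866 protein-coding genes had one (0.221%). The THP-1 peak, chr19:5904204-5904532, lay wholly inside the U-937 peak, with 329 bp shared and summits 197 bp apart. It was weak within its own list, with a fold enrichment of 4.71 (19.4 percentile) and a -log10 q of 3.41. Its summit was 583 bp from NDUFA11 and 499 bp from VMAC. Boundary peaks in both lines were present at 20 of 19866 genes (0.101%), of which NDUFA11 and VMAC share this site. The call at NDUFA11 did not hold within 500 bp of the gene, where 9 of the 97 genes were called in U-937 (all coding genes 6.23%) and 0 in THP-1 (all 0.131%). It also did not hold in THP-1 at a -log10 q of at least 5 (0 of the 97 genes, all 0.151%).

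ATP5MC1 had the second strongest peak. ATP5MC1 (gene ID 516, chr17:48892787-48895871, plus strand) encodes subunit c, the membrane ring of ATP synthase that turns as protons pass. Its peak, chr17:48892392-48892730, had a fold enrichment of 9.45 (91.0 percentile) and a -log10 q of 10.4, with the summit 209 bp upstream of the start and no other coding gene in the window. ATP5MC2 and ATP5MC3 encode the same mature protein. Neither had a boundary peak, and their nearest U-937 summits lay 38971 bp and 7836 bp away. The 5 ATP5F1 genes, which encode the part of ATP synthase that holds the catalytic sites, had 0 peaks. This allows a share of up to 60.0% and so cannot be set apart from the 7.02% of all protein-coding genes.

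Of the complex III genes, UQCR11, UQCRH and UQCRC2 carried peaks of middle to low rank. UQCR11 (gene ID 10975, chr19:1597169-1605462, minus strand), a small subunit, had a peak of fold 6.66 (59.6 percentile, -log10 q 5.36) with the summit 257 bp upstream of its start. UQCRH (gene ID 7388, chr1:46303698-46316776, plus strand), the hinge subunit, had a peak of fold 5.51 (35.7 percentile, -log10 q 3.7) at 205 bp upstream. That summit lay nearer to LRRC41, a gene read from the opposite strand, at 123 bp inside the start of LRRC41. UQCRC2 (gene ID 7385, chr16:21953361-21983660, plus strand), a core protein, had a peak of fold 5.2 (30.1 percentile, -log10 q 3.7) at 190 bp upstream and no other coding gene in the window. Among the other complex III genes, CYC1, which encodes the cytochrome subunit that hands electrons to cytochrome c, had its nearest summit 6865 bp away, and UQCRC1, UQCRFS1, UQCRB, UQCRQ, UQCR10 and the UQCRH copy UQCRHL lay further from any peak.

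Complex IV was represented by COX5B (gene ID 1329, chr2:97646062-97648383, plus strand), a nuclear-encoded subunit of cytochrome c oxidase. Its peak, chr2:97645852-97646071, had a fold enrichment of 7.09 (67.5 percentile) and a -log10 q of 6.22, with the summit 154 bp upstream and no other coding gene in the window. The muscle, lung or testis isoform genes COX4I2, COX6A2, COX6B2, COX7A1, COX7B2 and COX8C had 0 peaks of 6, which allows a share of up to 50.0% and so cannot be set apart from the 7.02% of all protein-coding genes.

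Strong U-937 peaks at COXFA4 and COX7A2L were not counted above for complex IV, and the genes were set side by side after their values were seen. COXFA4 lies outside the gene set. COX7A2L is in the set, but its peak lay inside the gene and beyond the boundary window. COXFA4 (gene ID 4697, chr7:10931943-10940153, minus strand), formerly NDUFA4 and long listed with complex I, encodes a protein now placed in complex IV. Its peak, chr7:10940202-10940473, had a fold enrichment of 13.6, rank 11 of 2272 and a -log10 q of 19.8, with the summit 151 bp upstream of the start and no other coding gene in the window. That fold is above the 13.1 of the NDUFA11 peak. Counting COXFA4 and COXFA4L2 with complex IV gave 2 of 19 genes (10.5%), beside 7.02% of all protein-coding genes. This count rests on 2 genes, with COXFA4 added after its values were seen, so it does not set complex IV apart. COX7A2L (gene ID 9167, chr2:42335559-42368957, minus strand) encodes a factor that joins complexes III and IV into supercomplexes. Its peak, chr2:42361270-42361618, lay 7622 bp inside the gene, with a fold enrichment of 11.2 (97.2 percentile) and a -log10 q of 15.0. RefSeq lists a second, inner start of COX7A2L at position 42361217, and the summit lay 118 bp upstream of it.

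The other complex I genes with peaks were NDUFA6 and 3 assembly factor genes. NDUFA6 (gene ID 4700, chr22:42085526-42090772, minus strand), an accessory subunit, had a peak of fold 5.97 (46.3 percentile, -log10 q 4.79) with the summit 76 bp upstream of its start and 85 bp from the divergent lncRNA gene NDUFA6-DT. NDUFAF8 (gene ID 284184, chr17:81239311-81241310, plus strand), a partner of the assembly factor NDUFAF5, had a peak of fold 7.07 (66.9 percentile, -log10 q 6.03) at 104 bp upstream. This summit also lay 152 bp upstream of TEPSIN, which is read from the opposite strand.

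NDUFAF7 (gene ID 55471, chr2:37231658-37271365, plus strand), a methyltransferase that acts in complex I assembly, had a peak of fold 6.3 (52.3 percentile, -log10 q 4.93) at 113 bp upstream. The summit was 51 bp inside CEBPZ, the nearest coding gene, which is read from the opposite strand. NDUFAF6 (gene ID 137682, chr8:94895799-95118496) had the weakest of the 10 peaks, with fold 4.72 (19.6 percentile, -log10 q 2.57), 45 bp inside one end of the gene and 849 bp from an end of CCNE2, the cyclin E2 gene. A second peak of fold 4.48 lay within the NDUFAF6 gene, 43.8 kb from its nearer end. NDUFAF6 and COX7A2L were the only 2 of the 97 genes with a U-937 summit over 1000 bp inside the gene, a call made at 3.14% of all protein-coding genes.

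**Figure D2:**
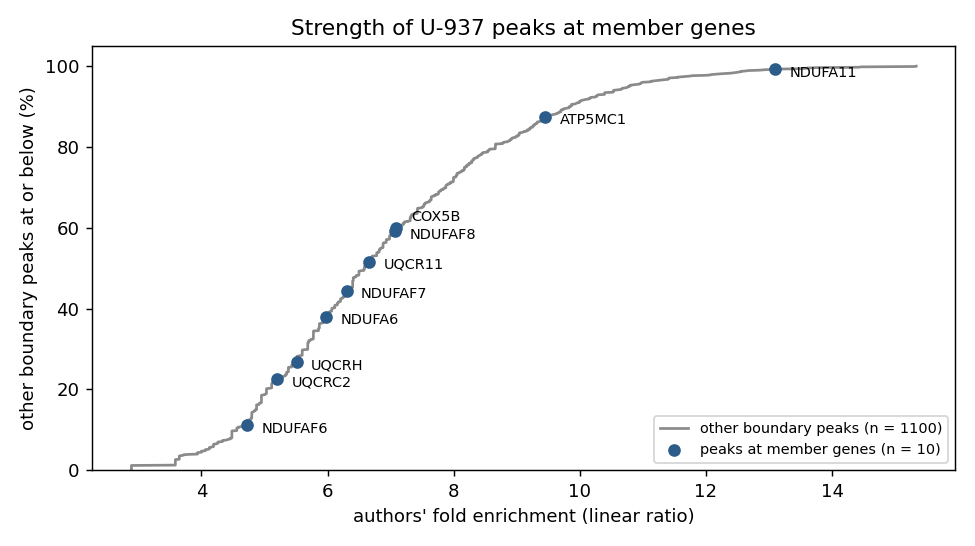
Authors' fold enrichment (x axis, linear ratio) of the 10 U-937 peaks at these genes, placed on the cumulative curve of the 1100 other boundary peaks (y axis, percent at or below). NDUFA11 and ATP5MC1 sit near the top of the curve and the remaining 8 between fold 4.72 and 7.09.

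As a set, the 10 peaks were like other boundary peaks in strength and width. Their fold enrichment ranged from 4.72 to 13.1 with a median of 6.48, against a median of 6.59 for the 1100 other boundary peaks of the list. Their median width was 255.0 bp against 252.0 bp, and 5 of 10 had a -log10 q of at least 5, against 55.2% of the others. At that threshold 5 of the 97 genes were called (NDUFA11, ATP5MC1, COX5B, NDUFAF8 and UQCR11), beside 3.93% of all protein-coding genes. The peaks lay on 7 chromosomes.

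The summits lay just upstream of gene starts. A strand was available for 9 of the 10 genes, and in all 9 the summit was at the start and on its upstream side, with a median of -190.0 bp. In 8 of the 9 the distance was between 76 and 257 bp, the exception being NDUFA11. Among gene and peak pairs of other coding genes with a listed start within 1000 bp, 74.0% were upstream (824 of 1113), with a median of -155.0 bp. None of the 9 lay at the end of a gene, and for NDUFAF6 the strand was not given in the table.

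**Figure D3:**
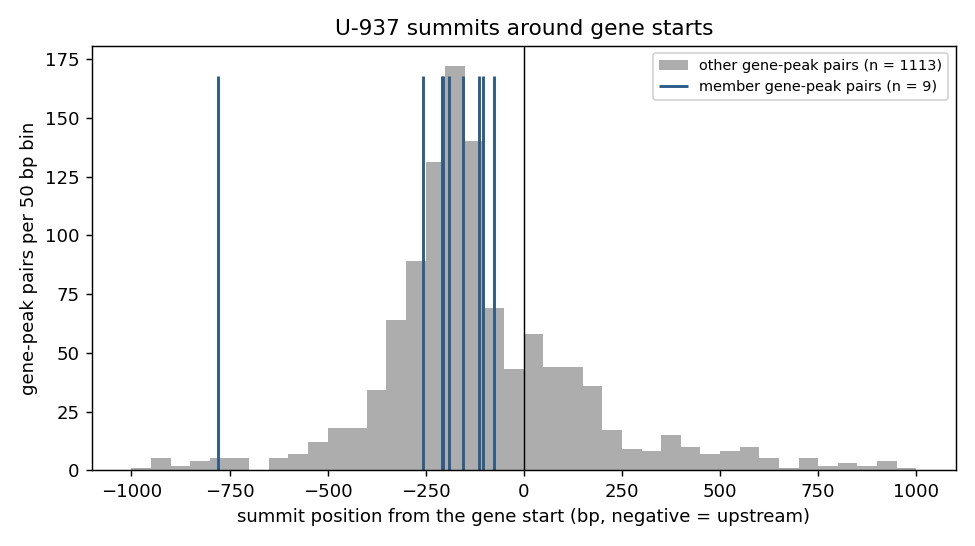
Position of U-937 summits from the gene start (x axis, bp, negative is upstream) for 1113 other gene and peak pairs (grey bars, pairs per 50 bp bin) and for the 9 pairs of oxidative phosphorylation genes (blue lines, whose height has no meaning). All 9 lines fall left of the start, 8 of them under the main mass of the bars and NDUFA11 at -780 bp.

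Shared windows were common. Another coding gene had a boundary within 1000 bp of the summit for 5 of the 10 peaks, LRRC41 at UQCRH, CEBPZ at NDUFAF7, CCNE2 at NDUFAF6, TEPSIN at NDUFAF8 and VMAC at NDUFA11. Of the 1100 other boundary peaks, 26.0% had 2 or more coding genes. When each peak was given only to the coding gene with the nearest boundary, 7 of the 97 genes were left (7.22%), beside 5.61% of all protein-coding genes. NDUFA11, UQCRH and NDUFAF7 were the genes lost, and in THP-1 the count was 0, beside 0.181% of all protein-coding genes.

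The threshold of 1000 bp was not a close one in U-937. NDUFA11 at 780 bp was the gene nearest to it from inside, and 0 genes had their nearest summit between 1000 and 3000 bp. The nearest from outside were CYC1 at 6865 bp, COX7A2L at 7622 bp, ATP5MC3 at 7836 bp and the readthrough gene ATP5MF-PTCD1 at 7966 bp. Over all 97 genes the median distance to the nearest summit was 148.0 kb in U-937, against 227.0 kb for other coding genes. By complex, the median was 37.7 kb for complex III, 108.0 kb for complex V, 161.0 kb for complex I, 194.0 kb for complex II and 246.0 kb for complex IV. In THP-1 the median was 2070.0 kb, and 60 of the 97 genes (61.9%) lay over 1 Mb from any summit, against a median of 2390.0 kb and 69.1% for other coding genes.

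**Figure D4:**
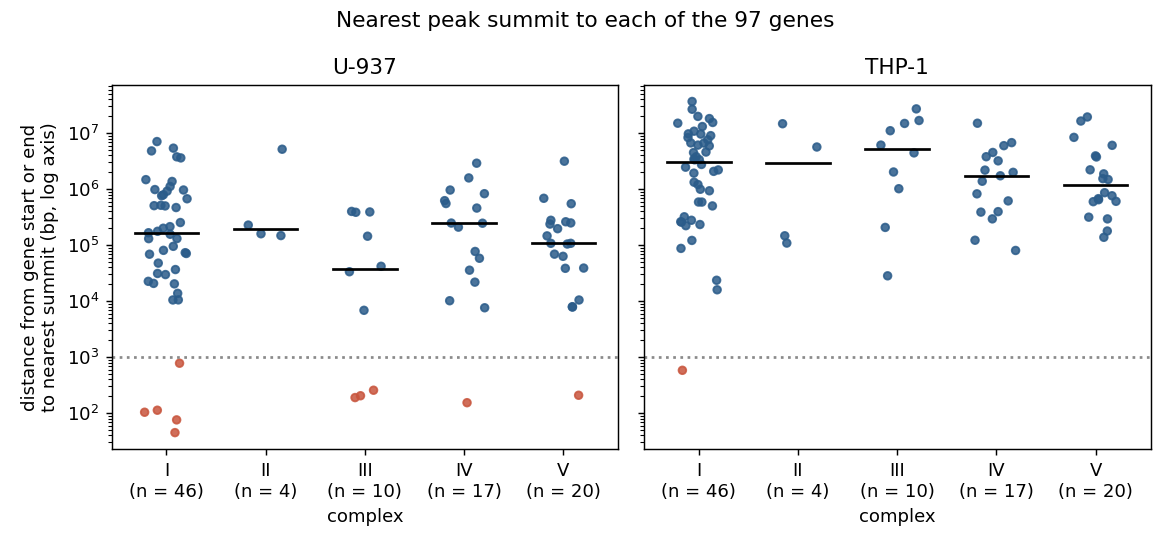
Distance from the start or end of each of the 97 genes to the nearest peak summit (y axis, bp, log axis) by complex, in U-937 (left) and THP-1 (right), with horizontal position within a complex random. Black bars are medians, the dotted line is 1000 bp and red points lie within it; 10 genes do so in U-937 and NDUFA11 alone does in THP-1, and no U-937 point falls between 1000 and 3000 bp.

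Promoter composition moved with the presence of a peak over all genes. A promoter window, 250 bases before to 50 after a start, was listed for 78 of the 97 genes, and a window was called CpG-rich at a GC share of at least 0.5 and a ratio of observed to expected CpG of at least 0.6. Among other coding genes, 1049 of 9934 with a CpG-rich window had a U-937 boundary peak (10.6%), against 144 of 5830 without (2.47%). CpG-rich windows were present at 62 of the 78 genes (79.5%), against 63.1% of all coding promoters. Within the CpG-rich class, 7 of 62 oxidative phosphorylation genes had a peak (11.3%, 4.66 to 21.9), 0.73 percentage points above other CpG-rich genes. In that class the background over all coding genes was also 10.6%. Outside it 2 of 16 had one (12.5%, 1.55 to 38.3), UQCRC2 and UQCRH, whose windows fell just under the GC limit at 49.3% and 49.7%.

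**Figure D5:**
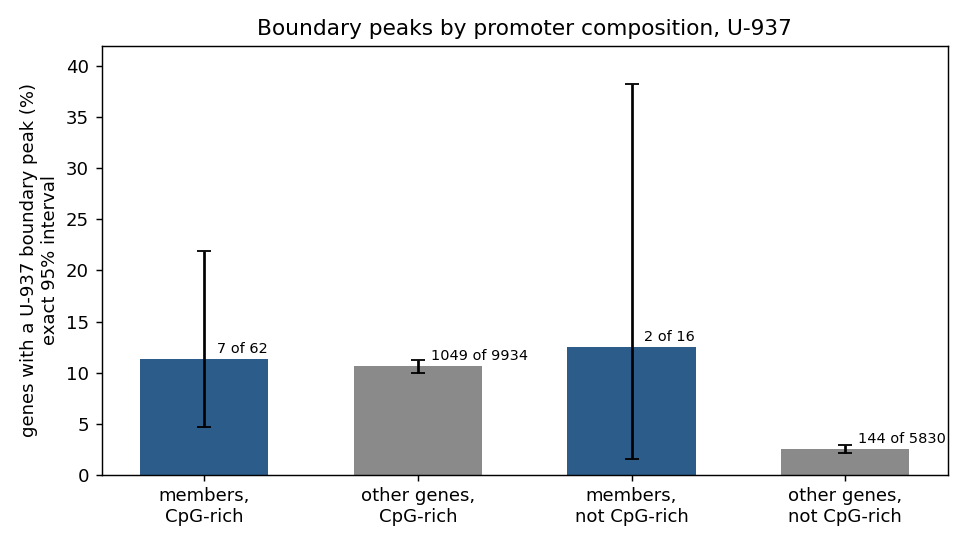
Share of genes with a U-937 boundary peak (y axis, percent, from 0) for oxidative phosphorylation genes (blue) and other coding genes (grey), split by promoter composition (x axis). Error bars are exact 95% intervals; the first 2 bars, for CpG-rich promoters, stand at 11.3% and 10.6%, and the third rests on 2 of 16 genes.

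Exact sequence matches were searched on both strands of the promoter windows only. Peak bases outside the windows were not searched, so the shares below do not describe the peaks themselves. At NDUFA11 the 250 bases before the start held 0 bases of the peak, and NDUFAF6 had no listed window. The forkhead letters GTAAACA were present at 2 of the 78 genes (2.56%), against 2.67% of the 15842 coding promoters and 1.66% of the 1202 coding promoters whose gene had a U-937 peak. The matches were at NDUFAF8 and COX7A2L. At NDUFAF8 the match lay at -159 to -153 from the start (base 0), inside the peak as the capitals of the printed sequence show. It adjoined an ATTGG, the reverse complement of CCAAT, at -152 to -148. At COX7A2L it lay at -47 to -41 before the outer start, outside the peak at the inner start.

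Letters known from other factors of mitochondrial gene promoters were searched in the same way. The strings differ in length and base content, so their frequencies cannot be set against that of the forkhead letters. CCGGAAG, known from ETS factors such as GABPA, was present in 22 of 78 windows (28.2%, all coding promoters 14.2%), including those of COX5B, NDUFAF8, UQCR11 and UQCRH. Of these named genes, only COX5B had its matches inside the U-937 peak. AAGATGGCG, known from YY1, was present in 9 (11.5%, all 2.69%), NDUFA6 and NDUFAF8 among those with a peak. The matches at NDUFA6 and NDUFAF8 lay outside their peaks. The palindromic site known from NRF1 was present in 5 (6.41%, all 1.77%), namely ATP5F1C, NDUFA8, NDUFAF5, NDUFB4 and SDHD. None of these 5 had a boundary peak, beside 7.02% of all protein-coding genes, so this zero does not set them apart. Over all coding promoters with a U-937 peak, CCGGAAG was present in 19.0%, AAGATGGCG in 4.91% and the NRF1 site in 2.83%. TGACGTCA, the cyclic AMP response element, was present in 5 (6.41%, all 2.56%, coding promoters with a U-937 peak 2.75%). The one at ATP5MC1 lay at -57 to -50, at the edge of the peak.

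CCAAT, known from NF-Y, was present in 29 of 78 windows (37.2%, all coding promoters 36.4%) and in 5 of the 9 windows of genes with a peak. Over all coding promoters with a U-937 peak it was present in 50.4%. NDUFAF8 had 6 matches in either direction, 5 of them inside the peak. CACGTG, the E-box, was present in 8 windows (10.3%, all 8.82%), among them ATP5MC1, NDUFA11 and UQCR11, and only the UQCR11 match at -187 to -182 lay inside its peak. GGGCGGG, known from SP and KLF factors, was present in 22 (28.2%, all 44.1%). A match is a description of the letters and does not show that a factor was bound.

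Genes that build or feed the complexes also carried U-937 boundary peaks. On a list of 64 assembly factor, coenzyme Q and cytochrome c genes, 13 had a peak (20.3%, 11.3 to 32.2), with folds of 4.0 to 9.74. This stands beside 7.02% of all protein-coding genes and 10.6% of those with CpG-rich promoters. At a -log10 q of at least 5 the count was 4 of 64 (6.25%, 1.73 to 15.2), beside 3.93% of all. The 13 included, for complex IV, COX14 (fold 9.74, -log10 q 11.1), the membrane insertase gene COX18 (fold 4.13), PET100 and COA6 (fold 4.72 each) and CMC2 (fold 5.23). FMC1 (fold 8.54) and ATPAF2 (fold 5.69) serve the assembly of complex V, TMEM126B (fold 5.29) that of complex I and UQCC4 (fold 4.56) that of complex III. CYCS, which encodes cytochrome c itself, had a fold of 8.31, and the coenzyme Q synthesis genes COQ6 and PDSS2 had 5.43 and 4.0. LRPPRC, which stabilises mitochondrial mRNAs, had 6.71.

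Of these 13 peaks, 8 had another coding gene in the window and 10 had the list gene as the nearest, FMC1 level with LUC7L2 at 111 bp. Of 19 genes of the TCA cycle and pyruvate dehydrogenase, 2 had a peak (10.5%, 1.3 to 33.1), among them OGDH (fold 6.11), a subunit of the 2-oxoglutarate dehydrogenase complex. Of 23 genes of mitochondrial DNA expression and biogenesis, TFB2M (fold 9.25), YY1 (fold 4.91) and TEFM (fold 3.65) had one (13.0%, 2.78 to 33.6). Both intervals include the 7.02% of all protein-coding genes. In THP-1 each of the 3 lists had 0 genes with a peak, at a background of 0.221%, so these zeros set no list apart.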

How the data were processed

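FOXO3A CUT&Tag peak lists of 5 libraries were used, 3 of THP-1 and 2 of U-937. The tools named per the submitters' processing notes were Bowtie2 and Picard, with build hg38. Versions, the peak caller and its background are not given in the sources. For each peak the authors deposited, 1 list per library and with no header, a fold enrichment (a linear ratio), -log10 p-value, -log10 q-value, a summit offset and an integer score, as read from the narrowPeak layout. Fold enrichment was used within its own list only. The score was not used. Of the THP-1 peaks, 245 on contigs outside the chromosomes were left out.

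Genes came from the RefSeq table of GRCh38.p14 (59792 genes). Of these, 831 that broke the ascending order of their chromosome, or lay on none of chromosomes 1 to 22, X and Y, were left out. A gene was called when a summit lay within 1000 bp of its start or end. Strand, start sites and sequences came from the promoter table, which held 78 of the 97 genes and 15842 coding genes; 11 of the 78 had more than 1 listed start, and the outermost was used for strand, distance and sequence, while the alternative of gene starts only took any listed start. Shares have exact (Clopper-Pearson) 95% intervals, and a count of 0 is given with the limit that 3 counts would set. No test was made, since each line had 1 library with peaks. Coordinates count from 1.

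The gene set, the 3 pathway lists and the rule for naming genes were chosen with earlier results of these data known, so no share is independent support. The rule named every gene of the set with a boundary peak in either line, near misses up to 3000 bp, peaks inside genes, and pathway list genes with a peak, and it limited sequences to 6 such genes outside chromosome 8. The code that assigns peaks to genes was checked on simulated data, in which 200 of 200 planted gene and summit pairs were recovered over 19866 genes. The summits were planted within the same 1000 bp window, so this checks the code and not whether a peak belongs to a gene. Alternatives covered the window, the significance threshold, the peak's extent, start sites only, the nearest gene only, the membership of the set, promoter composition and leaving out each library. Python 3.11.15, pandas 2.3.3, SciPy 1.17.1 and matplotlib 3.10.9 were used. The values of 1 gene of the comparison lists are not reported here by name.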

Additional observations from a re-analysis of the deposited data

How the results depend on the processing

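With 1 library holding peaks per line, leaving out replicate 1 removed every call, and leaving out any other replicate changed none. Across these leave-out runs the U-937 share thus ran from 0 to 10.3% for the 97 genes and 0 to 7.01% for other coding genes. It ran from 0 to 10.9% for complex I and 0 to 30.0% for complex III. For complexes IV and V it ran from 0 to 5.88% and 0 to 5.0%. The THP-1 share ran from 0 to 1.03%, and the number of genes called in both lines from 0 to 1. These ranges were fixed in advance by which libraries held peaks, and they do not measure the spread of a share. In alternatives that kept U-937 replicate 1, the difference between the 97 genes and others ran from 0.73 points within CpG-rich promoters to 5.09 points with gene starts only. These alternatives recount the same peak list. The main difference of 3.3 points had a range of -1.95 to 11.1, which includes 0. This range is the interval of the 97 genes less the fixed 7.01% of other genes. The interval of the other genes does not enter it. Without U-937 replicate 1 no peaks remained, so a difference of 0 was fixed in advance. The share of other coding genes was 6.22% within 500 bp, 8.2% within 3000 bp, 3.93% at a -log10 q of at least 5, 7.73% with gene starts only, 5.6% with the nearest gene only and 10.6% with CpG-rich promoters. The THP-1 share, and the count in both lines, was 0 within 500 bp, at a -log10 q of at least 5 and with the nearest gene only. The U-937 share stayed within its interval in the alternatives that kept U-937 replicate 1, from 5.15% of the 97 genes at a -log10 q of at least 5 to 12.8% with gene starts only. The latter is 10 of the 78 genes with a listed start, and its calls gained COX7A2L through an inner start and lost NDUFAF6; with outermost starts it was 9 of 78 (11.5%). By complex, a -log10 q of at least 5 gave 4.35% for complex I and 10.0% for complex III, the nearest gene only gave 6.52% and 20.0%, and gene starts only gave 42.9% for complex III (3 of 7), 14.3% for complex IV (2 of 14) and 7.14% for complex V (1 of 14). With subunits only it was 8.43% (7 of 83 genes). Settings for the count in both lines, other than peak overlap, and those for the NDUFAF genes, the comparison lists and the outermost starts were added after the data were seen. NDUFA4 and NDUFA4L2 are COXFA4 and COXFA4L2 in the table, outside the rule, so moving them left complex I as it was. No paired analysis was possible because no test was made and only replicate 1 of each line held peaks. Unknown read depth limits every absence of a peak to not detected.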

Other observations

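Nuclear pseudogene copies of the 97 genes carried peaks about as rarely as other pseudogenes. The gene table held 209 copies of 53 of the genes (a gene's symbol followed by P and a number), and 1 of them, COX6B1P5 on chromosome 4, had a U-937 boundary peak (0.478%), beside 0.368% of all 16860 pseudogenes. Its peak, chr4:2242153-2242428, had a fold enrichment of 9.7 (92.1 percentile) and a -log10 q of 10.8. The summit was 337 bp from the pseudogene but 125 bp from boundaries of the coding genes POLN and HAUS3, so the peak is not particular to the copy. The parent COX6B1, a subunit gene of complex IV, had no boundary peak, with its nearest summit 58285 bp away. In THP-1, 0 of the 209 copies had a boundary peak, beside 0.32% of all pseudogenes.

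Mitochondrial ribosomal protein genes, whose products make the subunits encoded on mitochondrial DNA, had a U-937 boundary peak at 8 of 77 (10.4%, 4.59 to 19.4), and cytosolic ribosomal protein genes at 17 of 91 (18.7%, 11.3 to 28.2), beside 7.02% of all protein-coding genes and 10.6% of those with CpG-rich promoters. At a -log10 q of at least 5 the counts were 4 of 77 (5.19%) and 7 of 91 (7.69%), beside 3.93% of all. The RPS6K kinase genes, which the same symbol pattern takes in, were left out of the latter after the data were seen, and with them the count was 19 of 101 (18.8%). In THP-1 both families had 0, at a background of 0.221%. Differences between these families and the oxidative phosphorylation genes were not tested.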
